A study of Mus musculus with 18 samples.

Results

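The effect of SR-3420 on mature brown adipocytes whose triglyceride lipases had been inhibited was measured by RNA-seq, by comparing the 3 Lipase Inh. + SR-3420 samples with the 3 Lipase Inh. + Vehicle samples, 6 of the 18 samples in the series. All cells came from 1 line of wild-type mouse brown preadipocytes, BAT-LgT, immortalised with SV40 large T antigen and differentiated into brown adipocytes in culture. On day 7 both groups were given inhibitors of ATGL and HSL for 1 h and then received SR-3420 or Vehicle (DMSO) for 3 h. The labels give SR-3420 at 10 µM, whereas the text of the study gives another dose, and which of them these cells received was not settled here. The same treatments without inhibitors (SR-3420 and Vehicle, 3 samples each) are given beside the members, as is Lipase Inh. + ISO (3 samples, 100 nM isoproterenol, an agonist of β-adrenergic receptors). The design is limited to a single immortalised line, and the compound used against HSL also acts on monoglyceride lipase according to the methods of the study.

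Brown adipocytes store triglyceride in droplets and release fatty acids from it by lipolysis, in which ATGL (gene Pnpla2) takes the first acyl chain, HSL (Lipe) the next and monoglyceride lipase (Mgll) the last. ABHD5 is the co-activator of ATGL and is held by perilipin on the droplet until β-adrenergic signals set it free, and the compound SR-3420 binds ABHD5 and releases it without such a signal. The fatty acids set free can serve as fuel and as ligands of PPAR transcription factors. The comparison therefore asks which genes still respond to SR-3420 when the lipases downstream of ABHD5 are inhibited.

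A small response was left, with stress genes, PPAR targets and receptors for fatty acids higher and genes of sterol and fatty acid synthesis lower. Of 12156 genes tested with edgeR, 26 (0.214%) were higher and 10 (0.0823%) lower at an adjusted p of at most 0.05 and a log2 fold change of at least 1, 36 (0.296%) in all. Scaling by total counts alone gave 16 higher and 11 lower, so that 59.3% rather than 72.2% of the calls were higher. The adjusted p alone was passed by 363 higher (2.99%) and 165 lower genes (1.36%), 528 (4.34%) in all, with a median log2 fold change of 0.42 among the higher and -0.45 among the lower ones. With total counts alone 114 of 344 such genes were higher, and the median shift of log2 fold changes from the TMM-scaled fit was -0.0958. Counts of rises and falls under total counts alone, here and below, are to be read against this shift. For comparison, SR-3420 against Vehicle without inhibitors passed the adjusted p in 6254 genes (51.4%).

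One library stood apart. Lipase Inh. + SR-3420 replicate 2 held 4263755 counts, against 10310447 to 21205032 in the other 17 libraries. The mitochondrial leucyl-tRNA synthetase gene Lars2 took 18.3% of its counts (0.0397% to 0.121% elsewhere), and 62 histone genes took 0.106% (0.0207% to 0.0510% elsewhere). A count of 3 was worth 0.799 CPM in this library. Its TMM factor was 0.881, against 1.06 to 1.09 in the other 5 libraries of both groups. Scaling by total counts alone leaves this factor out. Lars2 itself stood at 650, 656 and 593 CPM in Lipase Inh. + Vehicle and at 589, 208404 and 1103 CPM in Lipase Inh. + SR-3420, and its call was lost without that library (adjusted p = 0.553). Without it, 21 of 12244 genes were higher (0.172%) and 8 lower (0.0653%) with the fold threshold, and 364 (2.97%) passed the adjusted p alone, 257 higher (2.10%) and 107 lower (0.874%). Of the calls with the library, 17 of 26 higher and 7 of 10 lower genes were called without it, as were 245 of 363 and 101 of 165 past the adjusted p alone. The depths of the other 5 libraries of both groups lay between 10310447 and 15824621 counts.

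The cells carried the marks of differentiated adipocytes, while some markers of brown fat were low. General adipocyte genes such as Adipoq are among the 16 brown adipocyte markers. The 16 brown adipocyte markers summed to 11071 to 12054 CPM in Lipase Inh. + Vehicle and to 12699 to 13768 CPM in Lipase Inh. + SR-3420, with Adipoq, the adiponectin gene, at 3039 ± 66.5 CPM and 3103 ± 231 CPM (SD, n = 3). Zic1, which marks some brown adipose depots, and Dio2, the enzyme that activates thyroid hormone, lay under 1 CPM in every library, and Ucp1, the uncoupling protein of brown fat, was low at 1.39 to 2.92 CPM in Lipase Inh. + Vehicle and 2.23 to 3.46 CPM in Lipase Inh. + SR-3420. Markers of endothelial cells, macrophages and muscle were few: all 8 endothelial, 6 of 8 macrophage and 6 of 10 muscle markers were under 1 CPM in all 18 libraries. Markers of preadipocytes and of proliferation were present, with 2 of 10 and 0 of 10 under 1 CPM in all 18. The summed levels of the 10 proliferation markers overlapped between the groups (686 to 952 and 718 to 1019 CPM), as did those of the 10 preadipocyte markers (238 to 285 and 252 to 285 CPM). In bulk RNA, a change in the number of cells of a type and a change of RNA per cell cannot be told apart.

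**Figure D1:**
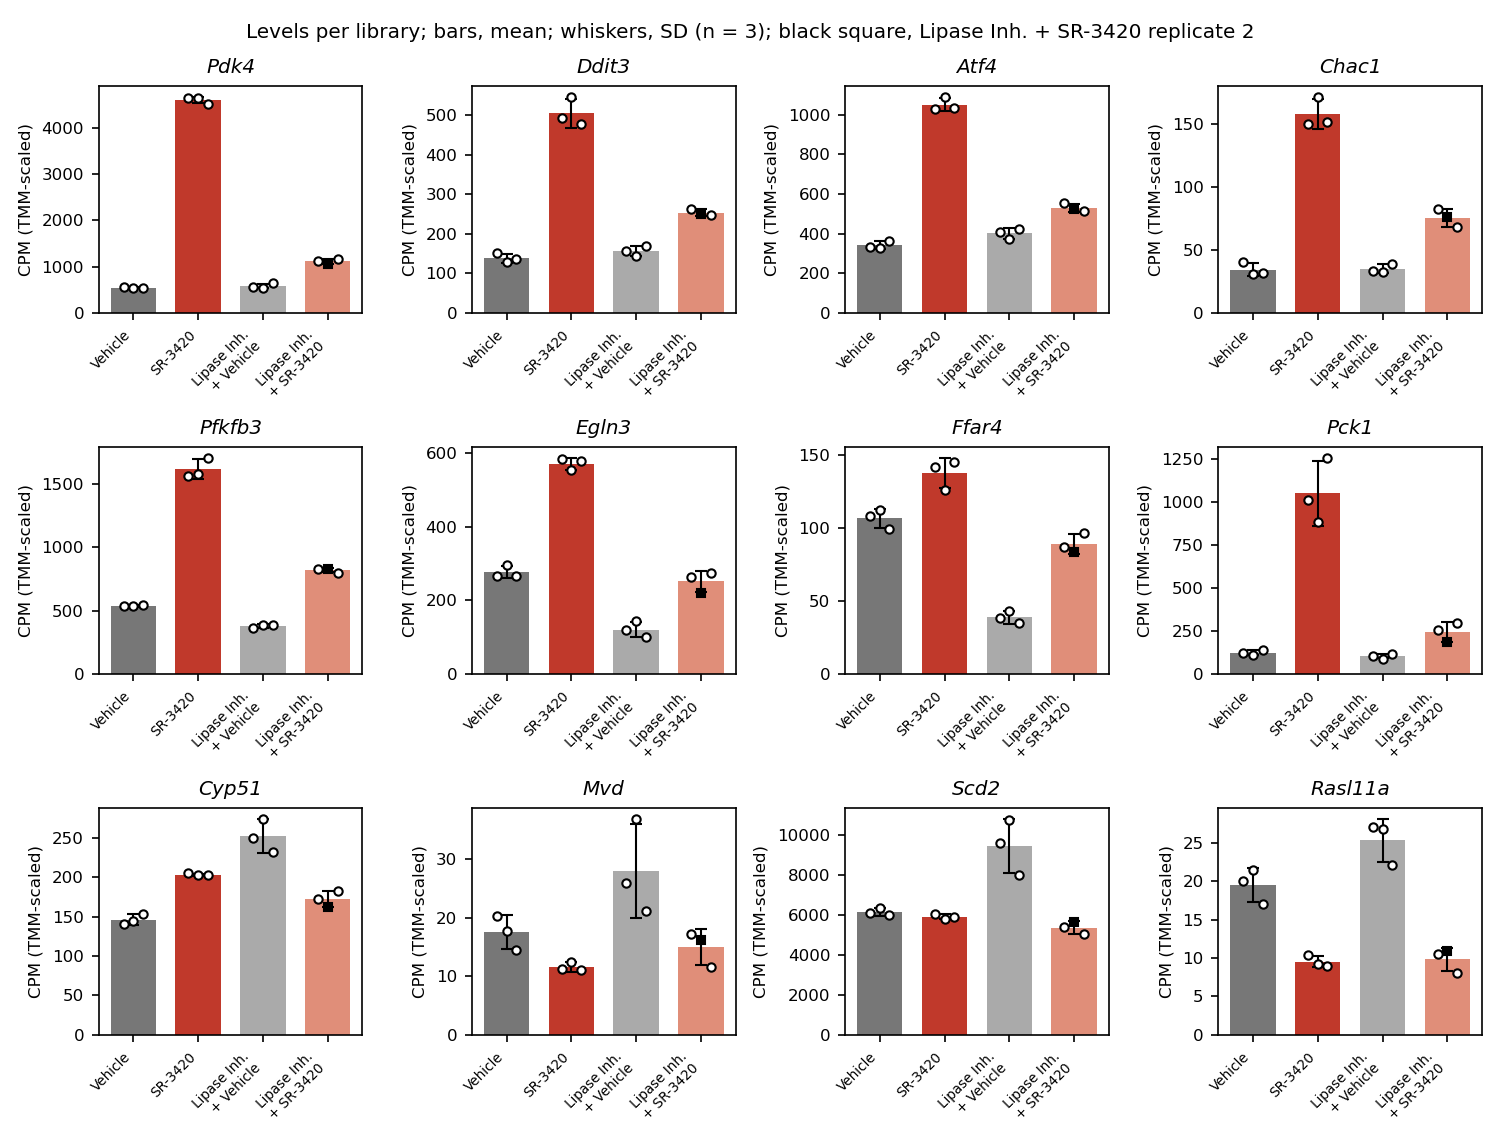
Levels of 12 genes in CPM of TMM-scaled libraries for Vehicle, SR-3420, Lipase Inh. + Vehicle and Lipase Inh. + SR-3420. Bars give means, whiskers SDs (n = 3) and points single libraries, with the shallow replicate 2 as a black square. Pdk4 reached 4609 CPM with SR-3420 but 1114 CPM with SR-3420 and inhibitors, while Cyp51, Mvd and Scd2 were highest in Lipase Inh. + Vehicle.

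The integrated stress response was examined first. Stress kinases phosphorylate the initiation factor eIF2α, which favours translation of the transcription factor ATF4, and ATF4 together with CHOP (Ddit3) switches on genes of amino acid supply, redox balance and cell death. Of 49 members of an ATF4 and CHOP list, 16 rose, 1 fell and 32 did not pass the adjusted p. The median log2 fold change of the list was 0.23, against 0.00 over all genes tested. Without replicate 2 of Lipase Inh. + SR-3420, 12 members rose and 0 fell, and 9 members passed with total counts alone or with libraries thinned to the smallest.

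Ddit3 (chr10:126727849-126733344, mm9, + strand) stood at 157, 144 and 169 CPM in Lipase Inh. + Vehicle and at 263, 250 and 247 CPM in Lipase Inh. + SR-3420. The groups did not overlap, and Ddit3 rose by 0.69 ± 0.07 on the log2 scale (SE, adjusted p = 5.53e-06). Its range shares 68 bases with Mars on the other strand. Atf4 (chr15:80085614-80087975, mm9, + strand) lay at 411, 372 and 422 CPM against 554, 527 and 514 CPM, again without overlap. It rose by 0.40 ± 0.08 (adjusted p = 0.003), a change that did not pass when libraries were scaled by total counts alone (log2 fold change 0.29, adjusted p = 0.106) or when replicate 2 of both groups was left out (0.36, adjusted p = 0.0572). Without inhibitors the effects of SR-3420 were larger, at 1.87 for Ddit3 and 1.62 for Atf4, and the effect with inhibitors was smaller by 1.18 (adjusted p = 4.44e-08) and by 1.22 (adjusted p = 7.13e-08).

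The targets followed the same order of size. Chac1, which degrades glutathione, was measured at 33.5, 32.6 and 39.1 CPM in Lipase Inh. + Vehicle and at 82.3, 75.9 and 68.1 CPM in Lipase Inh. + SR-3420. All 3 treated libraries lay above all 3 controls, and Chac1 rose by 1.10 ± 0.12 (adjusted p = 5.89e-06), against 2.20 without inhibitors. Gdf15, a secreted stress signal that reduces food intake, went from 16.8, 12.9 and 13.4 CPM to 37.2, 26.9 and 29.3 CPM, a rise of 1.14 ± 0.18 (adjusted p = 0.000298) against 3.82 without inhibitors. Ppp1r15a encodes the phosphatase subunit that reverses eIF2α phosphorylation. It rose by 0.59 (adjusted p = 0.00015), from 70.8, 68.5 and 79.3 CPM to 105, 104 and 120 CPM. Atf3, another factor of the same branch, rose by 0.80 (adjusted p = 0.00468) from 17.3 to 18.5 CPM to 31.0 to 31.4 CPM, against 5.31 without inhibitors.

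Other members that rose take up or exchange amino acids. Slc7a11 and Slc3a2, the subunits of the cystine and glutamate exchanger, rose by 0.65 and 0.49, and the cationic amino acid transporter gene Slc7a1 rose by 0.59. Slc7a11 did not pass without replicate 2 of both groups (0.58, adjusted p = 0.0997). The C/EBP family genes Cebpb and Cebpg, partners of ATF4 on DNA, rose by 0.58 and 0.28. Ddit4, an inhibitor of mTORC1, rose by 0.61 and was not past the threshold without Lipase Inh. + SR-3420 replicate 1 (0.50, adjusted p = 0.0518). Trib3 (0.32, adjusted p = 0.0492), Eprs (0.22, adjusted p = 0.0476) and Xpot (0.20, adjusted p = 0.0497) passed narrowly and did not pass without replicate 2 of Lipase Inh. + SR-3420 (adjusted p = 0.0881, 0.182 and 0.194). The asparagine synthetase gene Asns, an ATF4 target in many cells, had a log2 fold change of 0.10 (adjusted p = 0.594). Fgf21, a secreted metabolic hormone, was at 0.437, 0.412 and 0.867 CPM in the controls and at 2.07, 1.60 and 1.84 CPM after SR-3420, and its call (1.64, adjusted p = 0.0476) was lost in 5 of the 6 fits that left out 1 library, with adjusted p-values up to 0.170.

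The member that fell was Bbc3, which encodes the pro-apoptotic protein PUMA. Its levels were 22.1, 31.8 and 18.9 CPM in the controls and 17.2, 12.5 and 11.5 CPM after SR-3420, and it fell by 0.80 (adjusted p = 0.0215). Bbc3 was not past the threshold without replicate 2 (log2 fold change -0.77, adjusted p = 0.0664) or replicate 3 of Lipase Inh. + SR-3420 (-0.64, adjusted p = 0.183), or without Lipase Inh. + Vehicle replicate 2 (-0.56).

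For 33 of the 49 list members the effect of SR-3420 was significantly more negative with inhibitors than without, and for 1 it was more positive. Over all genes tested this test of the difference passed in 3321 (27.3%), 1797 more negative (14.8%) and 1524 more positive (12.5%). SR-3420 without inhibitors raised 39 of the 49 members and lowered 3, where 26.0% and 25.4% of all genes rose and fell.

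ATF4 with a C/EBP partner is known to bind the composite C/EBP-ATF response element. Its letters TGATGCAA were searched on both strands from 250 bases before to 50 bases after the start of each gene in the RefSeq promoter table (GRCm38.p6, another build than that of the counts). They occurred in 279 of 27025 genes (1.03%), in 13 of 41 list members with a promoter in the table, in 4 of the 16 that rose and in 9 of the 24 that did not pass. The 4 that rose are shown as 60 bases upstream of the start in the direction of the gene, with each match, on either strand, in capitals. They lie at chr1:191183410-191183469 (Atf3), chr2:119351023-119351082 (Chac1), chr3:50443627-50443686 (Slc7a11) and chr7:45615596-45615655 (Fgf21).
Atf3: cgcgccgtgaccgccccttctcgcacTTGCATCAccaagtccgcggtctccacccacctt
Chac1: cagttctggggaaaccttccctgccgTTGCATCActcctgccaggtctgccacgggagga
Slc7a11: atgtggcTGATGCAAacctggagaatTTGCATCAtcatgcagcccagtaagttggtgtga
Fgf21: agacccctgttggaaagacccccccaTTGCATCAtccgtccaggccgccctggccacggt
A match is a description of the letters and not evidence of binding in these cells, and members without the letters in this window, such as Ppp1r15a and Gdf15, rose as well.

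The protein folding branches of the stress response held fewer genes past the adjusted p. Of 24 markers of the unfolded protein response listed by the study, 7 rose and 0 fell (Atf3, Atf4, Cebpb, Ddit3, Dnajb9, Ppp1r15a and Thbs2), and since the study chose that list its direction is not independent evidence. With total counts alone 4 passed. Without inhibitors all 24 rose. Of 28 genes of ER chaperones and ER-associated degradation, 1 rose, Dnajb9, an ER co-chaperone, at 0.56 (adjusted p = 0.0153), and it was not past the threshold without replicate 3 of Lipase Inh. + SR-3420 (0.34, adjusted p = 0.163), or without replicate 1 or replicate 2 of Lipase Inh. + Vehicle (0.57 and 0.55). Hspa5, the main ER chaperone, stood at 812, 801 and 768 CPM against 765, 706 and 803 CPM, with overlapping groups and a log2 fold change of -0.06 (adjusted p = 0.713). None of 22 cytosolic heat shock genes passed the adjusted p, whereas 16 of them rose with SR-3420 alone. Hspa1a, an inducible HSP70 gene, lay at 28.1, 31.4 and 34.4 CPM against 26.2, 21.9 and 21.2 CPM (adjusted p = 0.372), with a log2 fold change of 3.21 without inhibitors.

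**Figure D2:**
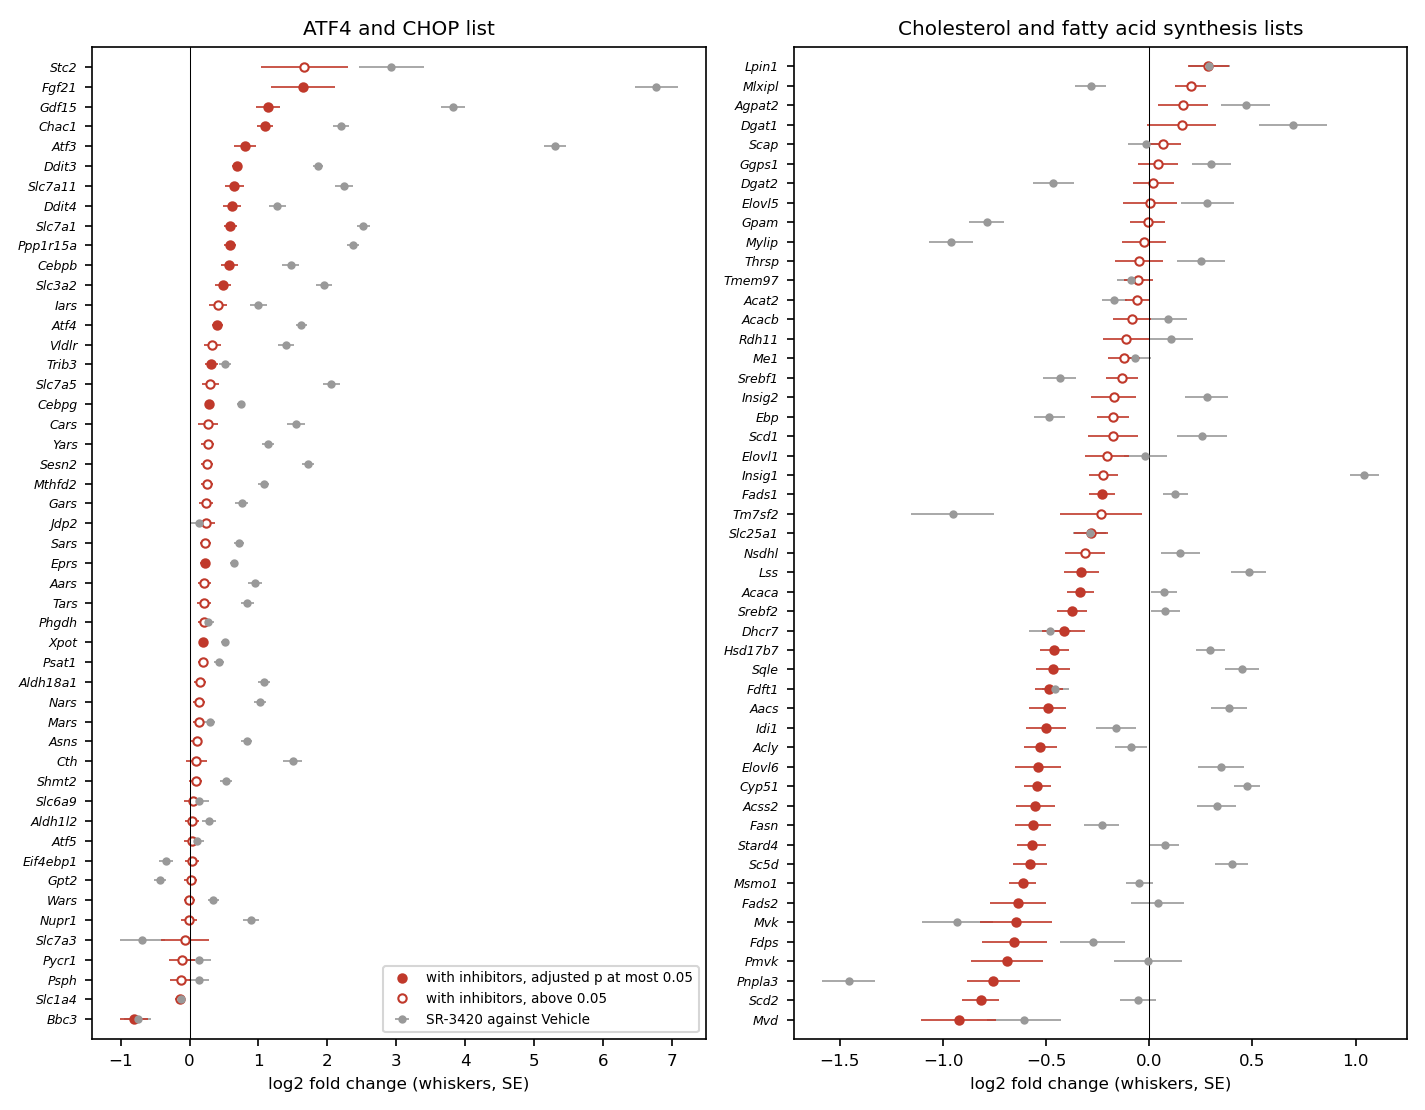
Log2 fold changes with SE of the ATF4 and CHOP list (left) and of the cholesterol and fatty acid synthesis lists (right), with inhibitors in red (filled where the adjusted p was at most 0.05) and without inhibitors in grey (members not reported by name are not drawn, and the key on the left holds for both panels). On the left most grey points lie to the right of the red ones, and 33 of 49 differences were negative by test. On the right the filled red points lie below 0, while many grey points lie at or above 0.

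Sterol synthesis moved the other way. When membranes hold little cholesterol, SCAP brings the transcription factor SREBP2 (gene Srebf2) from the ER to the Golgi, where it is cleaved, and it then raises nearly all genes of cholesterol synthesis. Of 29 tested members of a list of cholesterol synthesis and uptake, 17 fell and 0 rose, with a median log2 fold change of -0.42. Without replicate 2 of Lipase Inh. + SR-3420, 14 fell and 0 rose, with total counts alone 17 passed, and with libraries thinned to the smallest 11 passed. In the same list SR-3420 without inhibitors raised 9 genes and lowered 9 (median -0.02), where 26.0% and 25.4% of all genes rose and fell.

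Msmo1, which removes methyl groups from sterols, lay at 178, 192 and 164 CPM in Lipase Inh. + Vehicle and at 117, 120 and 113 CPM in Lipase Inh. + SR-3420 and fell by 0.61 on the log2 scale (adjusted p = 5.53e-06). Cyp51, the demethylase of lanosterol, lay at 250, 274 and 232 CPM against 173, 162 and 182 CPM. It fell by 0.54 (adjusted p = 1.88e-05), whereas without inhibitors its log2 fold change was 0.47. Mvd, which makes isopentenyl diphosphate, had the most negative log2 fold change of the 17, at -0.92 (SE 0.18, adjusted p = 0.00357), from 25.9, 36.9 and 21.1 CPM to 17.2, 16.3 and 11.6 CPM. In all 3 genes the treated libraries lay below the controls.

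The members that fell spanned the pathway. They included, in the mevalonate part, Mvk, Pmvk, Mvd and Idi1, then Fdps, Fdft1 and Sqle on the way to squalene epoxide, and Lss, Cyp51, Msmo1, Hsd17b7, Sc5d and Dhcr7 among the sterol steps. Srebf2 itself fell by 0.37 (adjusted p = 0.00291), as did Stard4, a carrier of cholesterol in the cytosol, by 0.57 (adjusted p = 3.23e-05). Fdft1 overlaps Ctsb on the other strand by 773 bases. Insig1, a retainer of SCAP in the ER, had a log2 fold change of -0.22 (adjusted p = 0.0876). None of 12 genes of cholesterol efflux and LXR targets passed the adjusted p, among them the cholesterol exporter Abca1 (0.27, adjusted p = 0.218).

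The baseline of these genes was itself raised by the inhibitors. Lipase Inh. + Vehicle against Vehicle, which shares its 3 Lipase Inh. + Vehicle libraries with the comparison described here, passed the adjusted p for 59 genes higher (0.485%) and 52 lower (0.428%) of 12156, and 12 of the 29 sterol genes were among the higher ones. Cyp51 had mean levels of 146 CPM in Vehicle, 203 in SR-3420, 252 in Lipase Inh. + Vehicle and 172 in Lipase Inh. + SR-3420, and Msmo1 had 119, 115, 178 and 117 CPM in the same order. The lower values after SR-3420 with inhibitors were thus set against a control above Vehicle. The effect of SR-3420 was more negative with than without inhibitors in 14 of the 29 genes by test, beside 14.8% of all genes, and more positive in 3, beside 12.5%. Among them were Cyp51 (difference -1.02, adjusted p = 5.8e-08), Sc5d (-0.98, adjusted p = 2.09e-06) and Sqle (-0.92, adjusted p = 5.99e-06), which rose by 0.47, 0.40 and 0.45 without inhibitors. ISO with inhibitors, measured against the same controls, raised 8 and lowered 13 of the 29, beside 29.4% and 28.3% of all genes.

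The CCAAT box binds NF-Y, a factor known to act beside SREBP2. The letters CCAAT were found on either strand of the same 300 bases in 41.1% of all 27025 promoters, in 20 of the 22 tested list members with a promoter in the table, in 11 of 11 that fell and in 9 of 11 that did not pass. The promoters of the genes with the values above are shown with each CCAAT or its reverse complement in capitals, at chr5:4104698-4104757 (Cyp51), chr8:64733602-64733661 (Msmo1), chr8:122443423-122443482 (Mvd) and chr9:42264301-42264360 (Sc5d), GRCm38.p6.
Cyp51: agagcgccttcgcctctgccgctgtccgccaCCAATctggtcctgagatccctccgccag
Msmo1: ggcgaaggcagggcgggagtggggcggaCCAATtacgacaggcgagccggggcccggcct
Mvd: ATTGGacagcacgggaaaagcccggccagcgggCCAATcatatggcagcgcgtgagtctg
Sc5d: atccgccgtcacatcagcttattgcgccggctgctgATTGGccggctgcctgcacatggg
The box was as common among members that did not pass as among those that fell, to within 2 genes of 11.

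Genes of fatty acid synthesis fell beside the sterol genes. Acly makes cytosolic acetyl-CoA from citrate, Acaca and Fasn turn it into palmitate, and elongases and desaturases modify the chain. Of 24 genes, 10 fell and 0 rose (median -0.19), and 9 fell without replicate 2 of Lipase Inh. + SR-3420. Scd2, a stearoyl-CoA desaturase (chr19:44368166-44381352, mm9, + strand), stood at 9558, 10718 and 8006 CPM in the controls and at 5409, 5630 and 5015 CPM after SR-3420. The groups were far apart, and Scd2 fell by 0.82 (SE 0.09, adjusted p = 5.89e-06), with -0.06 without inhibitors. Its close copy Scd1 did not pass (-0.18, adjusted p = 0.539), with overlapping groups.

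Fasn, the fatty acid synthase, lay at 1586, 1845 and 1381 CPM against 1093, 1107 and 1056 CPM and fell by 0.56 (adjusted p = 0.000298). Acly fell by 0.53 (adjusted p = 0.000267), Acaca by 0.33, the acetyl-CoA synthetase Acss2 by 0.55, the elongase Elovl6 by 0.54 and the desaturases Fads1 and Fads2 by 0.23 and 0.64. Fads1 was not past the threshold without replicate 2 of Lipase Inh. + SR-3420 (adjusted p = 0.0535). Pnpla3, a lipase-like gene raised by insulin and SREBP1, fell by 0.76 with and by 1.46 without inhibitors, and here the effect was smaller with inhibitors (difference 0.70, adjusted p = 0.00631). Srebf1, the SREBP gene of fatty acid synthesis, was at 1068, 1191 and 1013 CPM against 1060, 967 and 960 CPM (-0.13, adjusted p = 0.457). The inhibitors alone raised 6 of the 24, with the same shared controls. The SR-3420 effect was more negative with inhibitors in 9 of the 24 and more positive in 5, beside 14.8% and 12.5% of all genes tested.

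**Figure D3:**
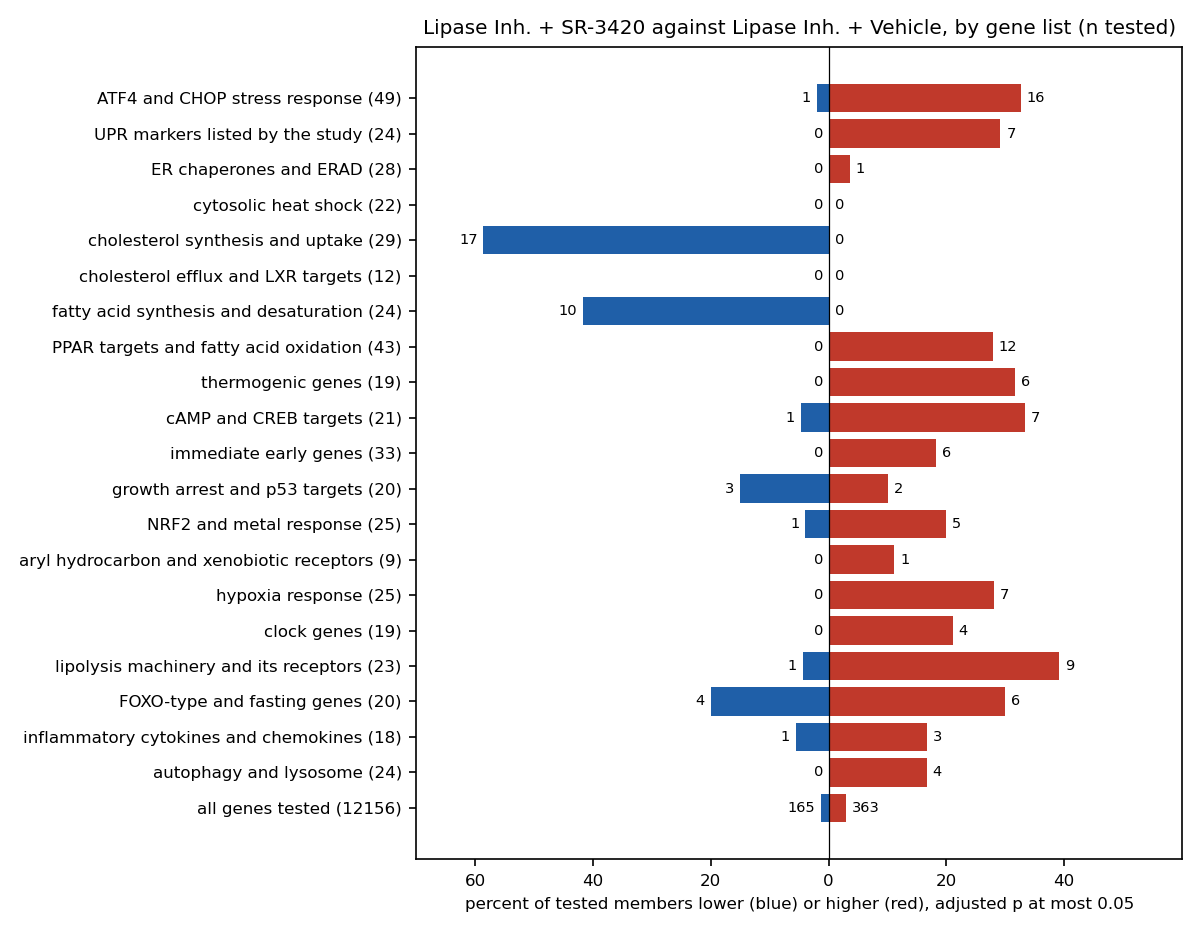
Percent of tested members of each gene list that were higher (red, to the right) or lower (blue, to the left) at an adjusted p of at most 0.05, with their number at the bar and the number tested in brackets. Of the lists drawn, cholesterol synthesis and uptake holds the longest bar to the left (17 of 29), and lipolysis machinery and its receptors the longest to the right (9 of 23), beside 363 and 165 of all 12156 genes.

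PPAR targets and genes of fatty acid oxidation were also among the genes that rose. PPARα, PPARδ and PPARγ are nuclear receptors for fatty acids, and their targets handle uptake, storage and burning of fat. Of 43 genes, 12 rose and 0 fell (median 0.26), 8 without replicate 2 of Lipase Inh. + SR-3420, and 6 with total counts alone. Pdk4 (chr6:5433351-5446278, mm9, - strand), the kinase that shuts off pyruvate dehydrogenase and so spares glucose, stood at 567, 548 and 637 CPM in Lipase Inh. + Vehicle and at 1114, 1068 and 1160 CPM in Lipase Inh. + SR-3420. The groups did not overlap, and Pdk4 rose by 0.93 ± 0.09 (adjusted p = 2.02e-06), or 1.91-fold. Without inhibitors it rose by 3.08, and the effect with inhibitors was smaller by 2.15 (adjusted p = 1.86e-10).

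Pck1, which makes phosphoenolpyruvate and in fat serves glyceroneogenesis, was at 105, 89.2 and 113 CPM against 255, 183 and 298 CPM. It rose by 1.27 ± 0.18 (adjusted p = 0.00012), against 3.10 without inhibitors. Acsl1, which activates long-chain fatty acids with CoA, went from 817, 909 and 740 CPM to 1270, 1285 and 1355 CPM, a rise of 0.67 (adjusted p = 5.53e-06). Plin2, a coat protein of lipid droplets, rose by 0.52 with and by 2.61 without inhibitors. G0s2, a protein inhibitor of ATGL, rose by 0.99 (adjusted p = 0.00157), from 259, 364 and 178 CPM to 555, 566 and 470 CPM. The glycerol channel gene Aqp7 rose by 0.76 (adjusted p = 0.00178), with 110, 116 and 102 CPM in the controls and 183, 218 and 161 CPM after SR-3420.

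Ucp3, an uncoupling protein homologue linked to fatty acid use in muscle and brown fat, was 1 of 6 members of this list with a more positive effect with inhibitors. Its levels were 7.80, 9.39 and 5.84 CPM in the controls and 15.3, 20.5 and 13.7 CPM after SR-3420, and it rose by 1.06 ± 0.22 (adjusted p = 0.00468), whereas without inhibitors the log2 fold change was 0.06. The difference of 1.00 passed the test (adjusted p = 0.0172), and it passed without replicate 2 (0.87, adjusted p = 0.0395), where the effect itself was 0.93. For 17 of the 43 list members the effect was more negative with inhibitors. Over all genes tested 14.8% were more negative and 12.5% more positive. Angptl4, a secreted inhibitor of lipoprotein lipase and a PPAR target, lay at 604, 654 and 570 CPM against 878, 878 and 702 CPM and did not pass (0.43, adjusted p = 0.0996). Acot3, a peroxisomal thioesterase with near-identical neighbours, was called on very low levels, 0, 0.165 and 0 CPM against 0.721, 1.33 and 0.382 CPM, and was not past the threshold in 4 of the 6 fits that left out 1 library, with adjusted p-values up to 0.116.

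Among 19 thermogenic genes 6 rose and 0 fell, Ucp1 not among them, and 3 passed with total counts alone or with libraries thinned to the smallest. Ppargc1a and Ppargc1b, the co-activators that drive mitochondrial genes, rose by 0.67 (adjusted p = 3.23e-05) and 0.68 (adjusted p = 0.00242). Ppargc1a lay at 90.5, 97.8 and 83.8 CPM in the controls and at 136, 143 and 153 CPM after SR-3420, without overlap. Ppara rose by 0.96 (adjusted p = 0.000437), from 282, 353 and 216 CPM to 533, 642 and 489 CPM. The potassium channel gene Kcnk3, lower with SR-3420 alone (-0.25), rose by 0.36 with inhibitors (adjusted p = 0.00263, difference 0.61, adjusted p = 7.17e-05). Ucp1 gave a log2 fold change of 0.28 ± 0.48 (adjusted p = 0.838) with overlapping groups, 2.11 without inhibitors, and 8.20 for ISO with inhibitors.

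The lipolytic machinery and receptors for its products were examined next. Of 23 genes 9 rose and 1, Pnpla3, fell, whereas 5 passed with total counts alone and 6 with libraries thinned to the smallest. Pnpla2, the gene of ATGL, lay at 1817, 1670 and 1920 CPM against 2074, 1925 and 2017 CPM (0.15, adjusted p = 0.256), and Abhd5, the gene of the SR-3420 target, at 165, 176 and 169 CPM against 189, 198 and 213 CPM (0.24, adjusted p = 0.134). Neither passed, although no treated library lay below a control. Lipe, the gene of HSL, rose by 0.60 ± 0.07 (adjusted p = 3.23e-05), from 1512, 1650 and 1379 CPM to 2382, 2384 and 2093 CPM. Mgll was higher by 0.36 (adjusted p = 0.0173). Mgll did not pass without replicate 2 of Lipase Inh. + SR-3420 (0.32, adjusted p = 0.0833), and in all it was lost in 4 of the 6 fits that left out 1 library, with adjusted p-values up to 0.110.

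The members of this list that rose included receptors for fatty acids and other metabolites. Ffar4, a receptor for long-chain fatty acids also known as GPR120 (chr19:38171569-38188753, mm9, + strand), stood at 38.2, 43.0 and 34.6 CPM in Lipase Inh. + Vehicle and at 86.9, 83.7 and 96.6 CPM in Lipase Inh. + SR-3420. The groups were well apart, and Ffar4 rose by 1.22 ± 0.10 (adjusted p = 1.58e-07), or 2.31-fold, against 0.37 without inhibitors. Its control level was low. The inhibitors alone changed it by -1.47 (adjusted p = 7.74e-09), from a mean of 107 CPM in Vehicle to 38.6 CPM. The difference between both SR-3420 effects was 0.85 (adjusted p = 6.17e-05), and 0.89 without replicate 2 (adjusted p = 9.72e-05). ISO with inhibitors changed Ffar4 by 3.52.

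Ffar2, a receptor for short-chain fatty acids, also rose and was also lowered by the inhibitors alone, at lower levels. Unlike Ffar4, it was lowered by ISO with inhibitors. It rose by 0.93 (adjusted p = 0.000162), from 19.2, 24.6 and 16.8 CPM to 41.4, 35.7 and 37.1 CPM, and was changed by -0.64 by the inhibitors alone (adjusted p = 0.0152) and by -2.13 by ISO with inhibitors. Hcar2, the receptor for β-hydroxybutyrate and niacin that restrains lipolysis, rose by 0.37 (adjusted p = 0.00551), and Gpr35, a metabolite receptor, by 0.96 (adjusted p = 0.0304). The effect of SR-3420 was more positive with inhibitors for 8 of the 23 genes and more negative for 6, beside 12.5% and 14.8% of all genes tested.

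Hypoxia-type genes formed a further group that rose. Oxygen-sensing prolyl hydroxylases (Egln1, Egln3) mark the factor HIF for decay, and HIF raises genes of glycolysis and the hydroxylases themselves. Of 25 genes, 7 rose and 0 fell (median 0.22), 8 rose without replicate 2 of Lipase Inh. + SR-3420, and 3 passed with total counts alone and 4 with libraries thinned to the smallest. Pfkfb3, which makes the activator of glycolysis fructose 2,6-bisphosphate (chr2:11393058-11475556, mm9, - strand), had the smallest adjusted p of all genes. It stood at 360, 386 and 384 CPM in the controls and at 828, 828 and 801 CPM after SR-3420, a rise of 1.12 ± 0.07 (adjusted p = 4.57e-09). The libraries of each group lay close together and the groups far apart, and the effect without inhibitors was 1.59.

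Egln3 stood at 119, 142 and 99.5 CPM against 262, 220 and 273 CPM, without overlap, and rose by 1.08 ± 0.10 (adjusted p = 5.83e-07). SR-3420 alone gave 1.05, a difference of 0.03 (adjusted p = 0.909). Kdm3a, a histone demethylase, rose by 0.51, the mitophagy receptor gene Bnip3 by 0.38, the collagen hydroxylase gene P4ha1 by 0.35 and Egln1 by 0.23. Ak4, a mitochondrial adenylate kinase, rose by 0.68 (adjusted p = 0.00152), from 12.8, 11.8 and 11.8 CPM to 21.3, 17.1 and 18.9 CPM. The inhibitors alone, again with shared controls, lowered 12 of the 25 genes and raised 0, among them Ak4 (-1.51, adjusted p = 4.89e-08), Egln3 (-1.20, adjusted p = 1.16e-07) and Pfkfb3 (-0.51, adjusted p = 0.00026). Mean levels of Egln3 were 275 CPM in Vehicle, 570 in SR-3420, 120 in Lipase Inh. + Vehicle and 252 in Lipase Inh. + SR-3420, so that SR-3420 with inhibitors brought it near the Vehicle level. ISO with inhibitors raised 21 of the 25.

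The core letters of the HIF response element, ACGTG, which also lie within the E-box CACGTG, were found on either strand of the same 300 bases in 21.8% of the 27025 promoters, in 17 of 24 list members in the table, in 6 of 7 that rose and in 11 of 17 that did not pass. The genes described above carry them at chr2:11502111-11502170 (Pfkfb3), chr12:54204065-54204124 (Egln3) and chr4:101419462-101419521 (Ak4), GRCm38.p6, shown with each match in capitals, where matches on both strands overlap in Pfkfb3 and Ak4.
Pfkfb3: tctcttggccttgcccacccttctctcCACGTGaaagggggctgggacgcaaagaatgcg
Egln3: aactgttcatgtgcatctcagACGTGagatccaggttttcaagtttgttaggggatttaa
Ak4: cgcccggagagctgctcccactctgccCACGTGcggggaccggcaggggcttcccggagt

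**Figure D4:**
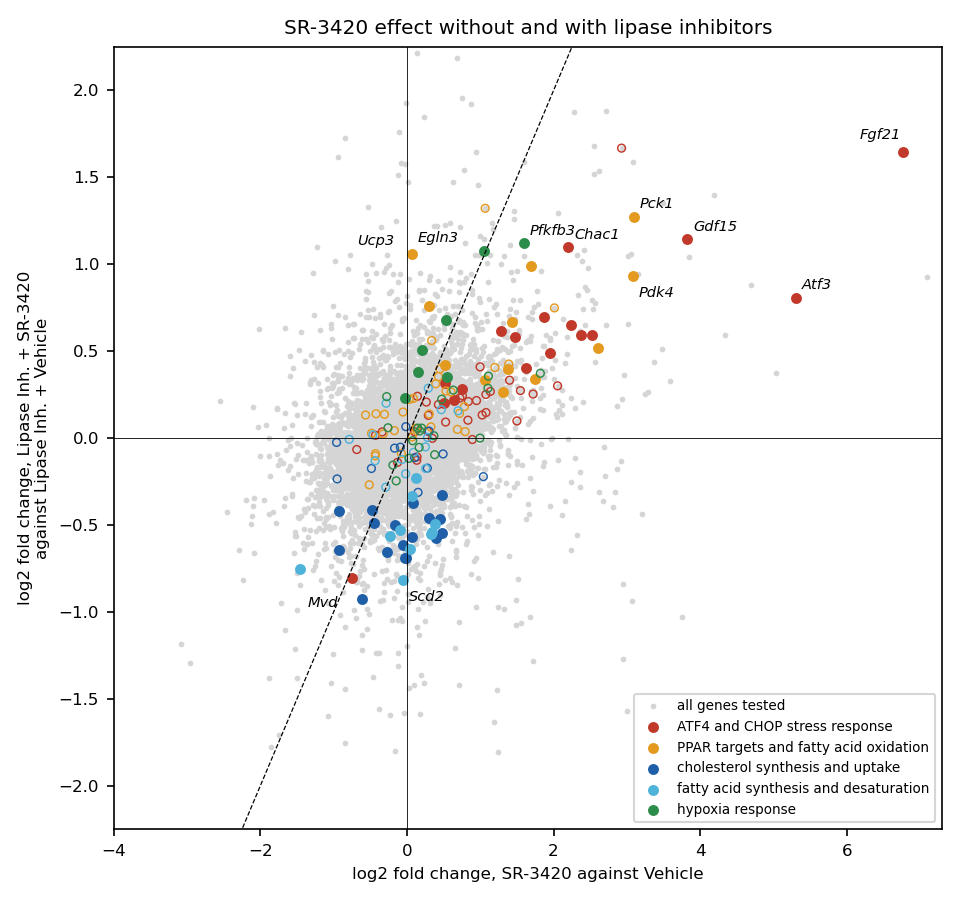
Log2 fold change of SR-3420 with lipase inhibitors (vertical) against that without (horizontal) for the genes tested, with members of 5 lists in colour (filled where the adjusted p with inhibitors was at most 0.05) and the line of equal effects dashed; 15 genes lie outside the axes. Stress genes lie mostly right of the dashed line and PPAR targets on both sides of it (median difference -0.08). Egln3 lies near the line and Ucp3 left of it, and the sterol genes past the threshold lie below 0.

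The comparisons with and without inhibitors share no samples, so their results could be set against each other. Of the 363 genes higher with inhibitors at the adjusted p alone, 284 were also higher without inhibitors, which is 78.2% of the 363 and 8.97% of the 3165 higher without. Of the 165 lower genes 94 were also lower without inhibitors, out of 3089 lower without (3.04%). For comparison, SR-3420 without inhibitors raised 26.0% and lowered 25.4% of all genes tested. Opposite directions were found for 20 of the higher and 28 of the lower genes, and the sterol and fatty acid genes Aacs, Acss2, Cyp51, Elovl6, Hsd17b7, Lss, Sc5d and Sqle were among the latter. By the test of the difference, the effect was smaller or more negative with inhibitors for 164 of the 363 higher genes, larger for 54 and past no threshold for 145. Of the 165 lower genes, 56 had a more negative and 35 a more positive effect with inhibitors. Over all genes tested this test passed in 27.3%, and the effect that selected these genes is part of the difference tested.

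Of 33 immediate early genes 6 rose, 0 fell and 27 did not pass, with a median log2 fold change of 0.08 against 2.08 without inhibitors, and 3 passed with libraries thinned to the smallest. Nr4a1, an orphan nuclear receptor gene induced within minutes by many stimuli, rose by 1.06 ± 0.12 (adjusted p = 7.73e-06), from 13.3, 11.9 and 15 CPM to 29.6, 24.8 and 28.6 CPM, against 3.05 without inhibitors. Egr1 rose by 0.88 (adjusted p = 0.0031), from 49.7, 53.3 and 58.1 CPM to 94.8, 98.9 and 103 CPM, against 4.69. Myc and Ctgf rose by 0.46 and 0.37. Without inhibitors 31 of the 33 rose, beside 26.0% of all genes. For 30 of the 33 the effect was significantly more negative with inhibitors, beside 14.8% of all genes. Fos was not among the 6, at 9.26, 15.2 and 7.86 CPM against 5.86, 7.20 and 5.47 CPM (-0.84, adjusted p = 0.259).

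Of 21 cAMP and CREB targets 7 rose and 1 fell, with a median of -0.08. Pde4d, a phosphodiesterase that degrades cAMP, rose by 0.79 (adjusted p = 3.23e-05), from 32.5, 23.3 and 30.9 CPM to 51.6, 48.2 and 50.3 CPM. ISO with inhibitors, which acts through cAMP, changed Pde4d by 4.33 and raised 16 of the 21. Pde3b, the phosphodiesterase through which insulin restrains lipolysis, rose by 0.41 and the insulin receptor substrate gene Irs2 by 0.52 (adjusted p = 0.000882). Pde4b fell by 0.42 and was not past the threshold without replicate 2 of Lipase Inh. + SR-3420 (-0.34, adjusted p = 0.0861), or without replicate 1 or replicate 3 of Lipase Inh. + Vehicle (-0.43 and -0.36), or in libraries thinned to the smallest (-0.19, adjusted p = 0.828).

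The remaining lists held fewer genes past the adjusted p. Of 25 NRF2 and metal response genes 5 rose and 1 fell, among them the zinc exporter gene Slc30a1 (0.50, adjusted p = 0.000641) and Osgin1 (0.66, adjusted p = 0.00562), the latter not past the threshold without replicate 1 of Lipase Inh. + SR-3420 (0.49, adjusted p = 0.0586). In that list 4 genes passed with total counts alone and 2 with libraries thinned to the smallest. Of 19 clock genes 4 rose and 0 fell, including Bhlhe40 (0.45, adjusted p = 0.00121) and Clock (0.38, adjusted p = 0.00366), but 0 passed with total counts alone, where Bhlhe40 had an adjusted p of 0.0735 and Clock of 0.114. Clock was also not past the threshold without replicate 2 of both groups (0.35, adjusted p = 0.0629). Of 24 autophagy and lysosome genes 4 rose and 0 fell, with Fnip1, a partner of folliculin, at 0.47 (adjusted p = 0.00562). With total counts alone 0 of these passed, and 2 passed without replicate 2 of Lipase Inh. + SR-3420, and Fnip1 was lost with total counts (0.36, adjusted p = 0.0822) and without replicate 2 of both groups (0.43, adjusted p = 0.0572). Of 9 aryl hydrocarbon and xenobiotic receptor genes 1 rose, Tiparp (0.33, adjusted p = 0.0102), and it was not past the threshold without replicate 3 of Lipase Inh. + SR-3420 (0.24, adjusted p = 0.0916) or replicate 1 of Lipase Inh. + Vehicle (0.32).

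Growth arrest and FOXO-type genes moved both ways. Plk2, a polo-like kinase induced by stress, rose by 1.16 ± 0.15 (adjusted p = 3.23e-05), from 13.2, 11.9 and 10.5 CPM to 25.9, 26.9 and 26.7 CPM, while the sestrin gene Sesn1 and Trp53inp1 fell by 0.52 (adjusted p = 0.003) and 0.46 (adjusted p = 0.00589). In all, 2 of 20 growth arrest and p53 targets rose and 3 fell, with 3 past the threshold in libraries thinned to the smallest. Of 20 FOXO-type and fasting genes 6 rose and 4 fell, with 6 past the threshold with total counts alone and 3 in thinned libraries, where Sesn1 had an adjusted p of 0.334 and Bmf of 0.0806. Bmf, a pro-apoptotic BH3-only gene, fell by 1.29 ± 0.21 (adjusted p = 0.00053), from 22.1, 23.4 and 28.1 CPM to 12.4, 7.46 and 9.16 CPM, and by 2.96 without inhibitors. Lfng, a glycosyltransferase that modifies Notch, fell by 1.19 (adjusted p = 0.00209) and by 3.08 without inhibitors. The effect was smaller with inhibitors for both (differences 1.67 and 1.90, adjusted p = 0.000628 and 0.000169).

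Among 18 cytokine and inflammation genes, 3 rose and 1 fell, and 1 passed with libraries thinned to the smallest. Ptgs2, the inducible cyclooxygenase COX-2, rose by 1.11 ± 0.16 (adjusted p = 0.000206), from 38.0, 45.9 and 27.9 CPM to 75.7, 82.1 and 82.6 CPM. The size was close to that without inhibitors (1.40, difference -0.29, adjusted p = 0.374). Csf1 fell by 0.35 (adjusted p = 0.00746) but was changed by 0.58 without inhibitors. It did not pass without replicate 2 of both groups (-0.30, adjusted p = 0.117). Lif was called at levels of 0.247 to 0.437 CPM against 0.721 to 1.27 CPM (1.59, adjusted p = 0.0298), and was not past the threshold in 3 of the 6 fits that left out 1 library, with adjusted p-values up to 0.384.

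Among the genes with the most negative changes was Rasl11a, a small GTPase of the Ras family (chr5:147656647-147659302, mm9, + strand), at 27.1, 26.8 and 22.1 CPM in the controls and 10.5, 10.9 and 8.08 CPM after SR-3420. The groups were well apart, it fell by 1.41 ± 0.14 (adjusted p = 3.3e-06), and the effect without inhibitors was -1.04 (difference -0.37, adjusted p = 0.181). Mrgprf, an orphan receptor gene, fell by 1.09 (adjusted p = 3.82e-05), from 29.2, 30.3 and 25.3 CPM to 11.5, 15.7 and 13.6 CPM. Ifit3, an interferon-induced gene, lay at 10.6, 10.1 and 6.93 CPM against 3.06, 4.53 and 4.26 CPM and fell by 1.24 (adjusted p = 0.000739), with -0.38 without inhibitors. The inhibitors alone had raised Ifit3 by 0.91 (adjusted p = 0.0145), with shared controls, and its SR-3420 effects differed by -0.86 (adjusted p = 0.0328). In libraries thinned to the smallest Ifit3 did not pass (-1.06, adjusted p = 0.341). Another interferon-induced gene, Iigp1, was lower by 1.31, at 3.86, 2.31 and 3.00 CPM against 1.17, 1.07 and 1.34 CPM, and was not past the threshold in 5 of the 6 fits that left out 1 library, with adjusted p-values up to 0.159.

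Other called genes belonged to none of the lists. Slc25a34, a mitochondrial carrier gene, rose by 1.05 ± 0.09 (adjusted p = 5.75e-07), from 48.0, 52.2 and 43.9 CPM to 108, 85.8 and 102 CPM, close to the 0.92 without inhibitors. Tmem82 rose by 1.06 and Rab39b, a vesicle GTPase gene, by 1.30. Chrna2, a nicotinic receptor subunit gene, rose by 1.87 ± 0.28 (adjusted p = 0.000238), from 0.583, 0.824 and 0.520 CPM to 2.16, 2.13 and 2.54 CPM. With libraries thinned to the smallest, Chrna2 was at 0.76 (adjusted p = 0.858) and Rab39b at 0.99 (adjusted p = 0.599), both not past the threshold. Cd300lg rose by 1.92 ± 0.29 (adjusted p = 0.000235), from 1.46, 1.40 and 2.08 CPM to 6.22, 6.93 and 6.23 CPM, against 0.87 without inhibitors. The difference of 1.05 passed with replicate 2 (adjusted p = 0.0488) and not without it (1.01, adjusted p = 0.0712). Cyp26b1, which degrades retinoic acid, rose by 1.08 (adjusted p = 0.0123), a call lost without replicate 3 of Lipase Inh. + SR-3420 (0.86, adjusted p = 0.171) or replicate 2 of Lipase Inh. + Vehicle (0.97), and in thinned libraries (adjusted p = 0.568).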

How the data were processed

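RNA from 18 samples of cultured brown adipocytes, 3 in each of 6 groups, was sequenced. The study describes its replicates as separate experiments. According to the methods and the submitters' processing notes, reads were aligned to mm9 with STAR 2.4.2a and counted per RefSeq gene with iRNA-seq, and HOMER is also named. The deposited table holds whole-number counts for 20295 genes that the authors had not normalised, with 0 columns of other samples. Whether the counting used strand is not given in the sources used here, so genes overlapping on opposite strands cannot be told apart. Groups and replicate numbers came from the sample labels.

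The main test used edgeR 4.0.16 under R 4.3.3. The filterByExpr function (minimum count 10, minimum total 15) retained 12156 genes, TMM factors scaled the libraries, and glmQLFit and glmQLFTest were run on the 6 group means of a single model that took in the 18 samples. The p-values were adjusted by the Benjamini-Hochberg method over all genes tested. Rose and fell refer to an adjusted p of at most 0.05, and called refers to this together with a log2 fold change of at least 1 in size. The study itself used DESeq2. Levels are CPM of TMM-scaled libraries, not corrected for gene length, errors of log2 fold changes are SEs and other errors SDs. The test of a difference between both SR-3420 effects was an interaction contrast of the same model. Counts lacked molecular identifiers, and the CPM worth of a count of 3 covers counting error only. The SEs and SDs also hold the spread between replicates. Simulated data for the comparison with inhibitors were tested over 11981 genes. The test recovered 85.1% of 67 genes changed 1.5-fold, 91.0% of 67 changed 2-fold and 95.5% of 66 changed 3-fold. In the same data 16 unchanged genes were past the threshold. These rates hold for the simulated libraries only and were not split by level of expression. Recovery in the measured libraries, with the unusual replicate 2 of Lipase Inh. + SR-3420, was not tested, nor was that of low-level genes alone. Gene starts in the table are counted from 0 and were printed from 1, in mm9. Promoters came from the RefSeq table of GRCm38.p6 and were matched by symbol.

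Named genes were Pdk4, Ddit3 and Atf4, in each direction up to 15 of the genes called with and without Lipase Inh. + SR-3420 replicate 2, taken by size of change (average log2 CPM of at least 1), up to 3 per direction and list by adjusted p, up to 6 per direction called only with that replicate, and Lars2, Ucp1 and the lipase genes. Some list members are counted but not reported by name here. Other genes were named after their values were seen. The members and lists were chosen with earlier results of these data known. Alternatives were other scaling factors and filters, DESeq2 1.42.0, limma 3.58.1 (voom with quality weights), the 6 samples alone, a replicate block, thinning to the smallest library and leaving out libraries.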

Additional observations from a re-analysis of the deposited data

Results flagged for a closer look

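The effect of SR-3420 with inhibitors differed from that without inhibitors, by the interaction test in edgeR, for 17 of the 36 called genes, beside 27.3% of all genes tested. The 36 genes were chosen by the effect with inhibitors, which is part of the difference tested. The choice therefore favours a raised share and effects that are larger with inhibitors. Among gene lists, the effect was more negative with inhibitors for 33 of 49 ATF4 and CHOP genes, for 30 of 33 immediate early genes, for 14 of 29 genes of cholesterol synthesis and uptake and for 9 of 24 genes of fatty acid synthesis, beside 14.8% of all genes tested. The effect was larger in size with inhibitors for 7 of the 26 higher genes (Acot3, Cass4, Cd300lg, Ffar4, Hist2h4, Lars2 and Ucp3) and for 1 of the 10 lower genes (Ifit3). Of these, 4 were also called without Lipase Inh. + SR-3420 replicate 2. These were Cass4, a low-level gene below the average level set for named genes, with a difference of 1.94 on the log2 scale (edgeR, adjusted p = 0.0277), Cd300lg, with a difference of 1.05 (adjusted p = 0.0488), Ffar4, with a difference of 0.85 (adjusted p = 6.17e-05), and Ifit3, with a difference of -0.86 (adjusted p = 0.0328). The difference for Cd300lg was not past the threshold without that replicate (1.01, adjusted p = 0.0712).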

How the results depend on the processing

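Counts of calls depended on the processing, and no named gene changed direction past a threshold. With TMM scaling of all 18 samples 26 genes were higher, 10 lower, 528 past the adjusted p alone, 113 of them among 437 list members tested, and 17 called genes had a different effect with inhibitors. Size factors of the RLE type, leaving out Lars2 and histone genes, a filter of at least 1 CPM in 3 samples and DESeq2 (36 higher, 8 lower, 649 past the adjusted p) kept every such count within 1.5 times. Total counts alone gave 16 higher genes, 344 past the adjusted p and 72 list members, and moved log2 fold changes by a median of -0.0958. Without a filter 48 genes were higher and 27 called genes differed. Quality weights in limma voom gave 16 lower genes, with weights of 1.23 for replicate 2 and 0.399 for replicate 3 of Lipase Inh. + SR-3420. The 6 samples alone gave 345 genes past the adjusted p. Thinning every library to the smallest gave 5 lower genes, 209 past the adjusted p and 64 list members. An alternative chosen after seeing the data, the 2 groups alone without Lipase Inh. + SR-3420 replicate 2, gave 15 higher, 6 lower, 206 past the adjusted p and 69 list members. The cause of these shifts was not tested.

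Fits without 1 library, or without replicate 2 of both groups, gave 20 to 40 higher genes, 5 to 12 lower genes, 248 to 484 past the adjusted p, 70 to 98 list members and 11 to 24 called genes with a different effect. The most higher genes (40) were found without Lipase Inh. + SR-3420 replicate 3. Without Lipase Inh. + Vehicle replicate 1, 297 genes passed the adjusted p and 11 called genes differed, and without replicate 2 of both groups 5 genes were lower, 248 passed and 70 list members passed.

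The replicate numbers were not treated as pairing the samples, since not every same-numbered pair of the 2 groups correlated. Across genes, deviations of same-numbered Lipase Inh. + Vehicle and Lipase Inh. + SR-3420 samples correlated at -0.0398, 0.107 and 0.214. Lipase Inh. + Vehicle replicate 2 correlated better with replicate 1 of the other group (0.113). Over all 6 groups, the mean correlations of same-numbered samples were -0.0118, 0.150 and 0.190 for replicates 1, 2 and 3. The lowest were -0.114, 0.0745 and 0.114. Whether numbers 2 and 3 mark shared experiments was not tested, and the main fit holds no such block. With a replicate block over all 18 samples 40 genes were higher, 12 lower and 852 past the adjusted p, and with the block over the 6 samples 37, 15 and 983. The difference of the SR-3420 effects cannot be fitted in the 6 samples alone.

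For the 80 named genes, 1499 values under alternatives were computed. Of these, 1309 stayed on the same side of the adjusted p threshold, 189 lost the threshold, 1 gained it and 0 reversed direction past it. A change of sign where neither value passed was counted as the same side. Ucp1 was such a case, at 0.28 in the main fit and -0.05 without Lipase Inh. + Vehicle replicate 3. Besides the losses given with the genes, further genes no longer passed the adjusted p. With total counts alone these were Bhlhe41, Bnip3, Ccng2, Ctgf, Dnajb9, Fbxo21, Fgf21, Flcn, Lif, Mgll, Myc, Tiparp and Tnfaip3. With thinning they were Aqp5, Bbc3, Ccng2, Clock, Csf1, Ctgf, Fam124a, Fbxo21, Ffar2, Fgf21, Flcn, Foxq1, G6pdx, Iigp1, Lif, Slc7a11 and Tnfaip3. Depth limits low genes most in Lipase Inh. + SR-3420 replicate 2, where a count of 3 was worth 0.799 CPM, against 0.173 to 0.270 CPM in the other 5 libraries.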
